A study of Caenorhabditis elegans with 6 samples.

Results

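This account covers the comparison of the strains coded PMW123 and PMW124 in hermaphrodites of Caenorhabditis elegans, a nematode whose hermaphrodites carry a pair of X chromosomes and whose males carry a single X. The data were whole-number counts of sequencing reads at GATC sites, summed in bins of 100 kb. All 4 hermaphrodite count columns of these strains were used, 2 per strain, out of 12 columns in the count table, over all 1005 nuclear bins of the 1006 bins listed. PMW124 was the denominator of the ratios that the authors deposited, and its deposited ratio was 1 in every bin with a value. PMW123 is taken here as the strain whose Dam fusion carries lmn-1 (nuclear lamin), and PMW124 as the strain with Dam fused to gfp. No label or file header ties either code to a construct, and no value in the tables can check it, so the strains are named by code throughout. Every direction below holds for PMW123 against PMW124, whatever the 2 strains carry.

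Per the labels, both strains expressed their fusion from the hsp-16.41 heat-shock promoter without induction, so that expression rested on the basal activity of that promoter, which was not measured here. The animals were whole hermaphrodites at the L4 larval stage, grown at 25 °C on a bacterial lawn. The labels give 20 animals per sample and lysis in tubes of 10 worms, and list a single sample per construct and sex. What separated the numbered libraries of a strain (tubes, cultures or days) is not stated, so the p-values measure the spread between these libraries, which may be technical. A whole animal mixes nuclei of many cell types: a region methylated in fewer cells and a region methylated less in each cell cannot be told apart.

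In DamID, a protein of interest is fused to the bacterial enzyme Dam, which methylates adenine in the sequence GATC where the protein meets DNA. DpnI cuts methylated GATC only, and the cut fragments are ligated to adapters, amplified by PCR and sequenced. A fusion with a protein that does not bind chromatin, such as GFP, records how open and reachable each region is for the enzyme, which is why it serves as the denominator. The nuclear lamin forms the meshwork under the inner nuclear membrane. Chromosomes of C. elegans are holocentric, and the autosomes have gene-dense and actively transcribed centres and repeat-rich arms that carry more histone H3 lysine 9 methylation, and the arms are known to lie near the nuclear envelope. The X chromosome of hermaphrodites is bound by the dosage compensation complex, which lowers transcription from both X chromosomes.

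The libraries differed in sequencing depth. The PMW123 libraries held 39875 and 113704 nuclear reads, and the PMW124 libraries held 23597 and 30431. The median bin held 18 and 58 reads in PMW123 and 13 and 17 reads in PMW124, so the control was the shallower side of every ratio. Between 1 and 9 bins per library had no read. Reads were concentrated: the 10 bins with the highest mean share held 25.8% and 22.7% of the autosomal reads in PMW123 and 21.3% and 18.1% in PMW124. Levels below are shares of each library's reads on the 5 autosomes, I to V, which numbered 33806 and 96331 in PMW123 and 18696 and 24176 in PMW124.

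Libraries of the same strain resembled each other more than libraries of different strains at every bin size examined. Across 100 kb bins the Pearson correlation of log2 shares was 0.86 between the PMW123 libraries and 0.78 between the PMW124 libraries, against 0.64 to 0.69 between strains. Across 103 windows of 1 Mb these rose to 0.97 and 0.94 within strains and 0.73 to 0.79 between them. The points of such a correlation are neighbouring stretches of the same genome that share GATC density and mappability, so it describes likeness and carries no p.

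The fold change itself agreed less well between independent library pairs than the levels did. With library 1 of PMW123 set over library 1 of PMW124, and library 2 over library 2, the 2 profiles share no reads, and their correlation was 0.43 across 1005 bins of 100 kb. It was 0.56 at 200 kb, 0.69 at 500 kb and 0.79 at 1 Mb. With the pairs crossed it was 0.46 at 100 kb and 0.87 at 1 Mb. The share of regions in which both pairs had the same sign went from 69.4% at 100 kb to 90.3% at 1 Mb. Over the same steps the median counting error of the log2 fold change, from read numbers alone, went from 0.32 to 0.086. Counting did not account for all of the spread: the chi-square statistic between libraries of a strain, per degree of freedom, was 3.88 in PMW123 and 2.78 in PMW124 at 100 kb, where 1 is the value of pure counting. The libraries of a strain were more than 4-fold apart in 17 bins in PMW123 and in 25 bins in PMW124, and in 0 windows of 1 Mb.

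**Figure D1:**
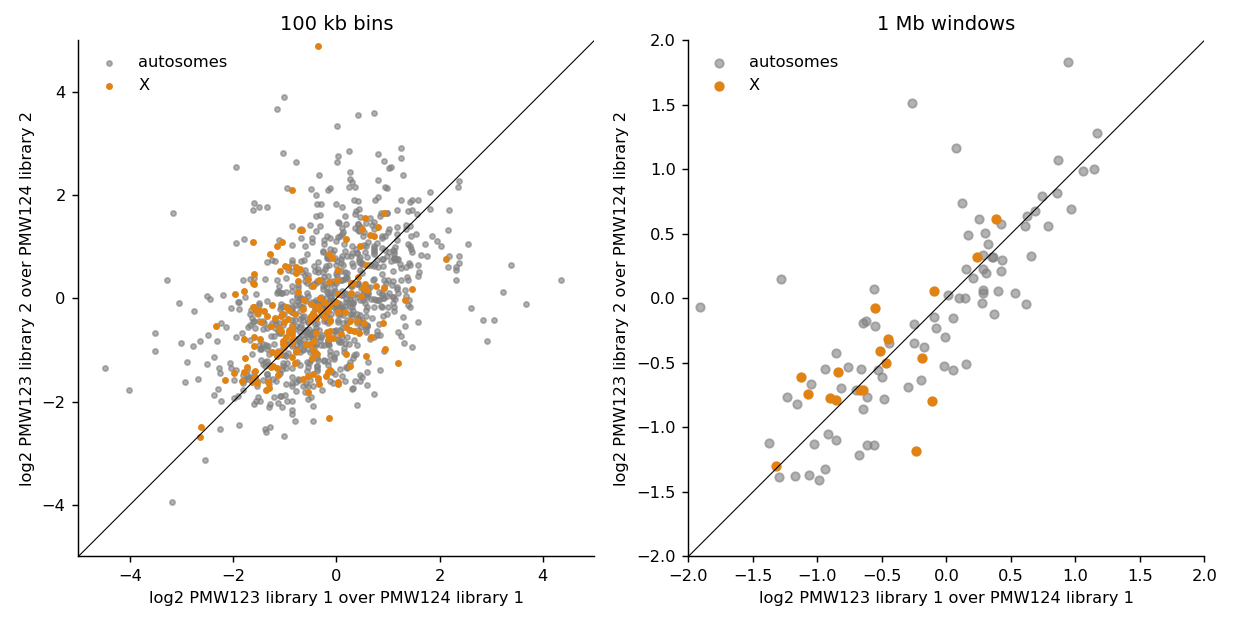
Log2 PMW123 over PMW124 in library pair 1 (horizontal axis) and in library pair 2 (vertical axis), with each point a 100 kb bin (left) or a 1 Mb window (right), X in orange, and the line marking equal values. The cloud narrows around the line from a correlation of 0.43 for bins to 0.79 for windows, and most X windows have both values below 0.

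The contrast separated arms from centres on the 5 autosomes. Each chromosome was cut into 3 parts of equal length, called left, middle and right, and the middle part was taken as the centre. Per bin, the outer parts of the autosomes held on average 3.12 and 3.01 times as many reads as the middle parts in the PMW123 libraries, and 1.57 and 1.59 times as many in the PMW124 libraries. On these means the outer parts were thus also the higher ones in the control. The means include the 10 bins of highest share, all in outer parts. Those bins held 21.3% and 18.1% of autosomal reads in PMW124, and 25.8% and 22.7% in PMW123. How far the excess in the control rests on them was not tested. The difference between strains was a further 1.94-fold, a log2 difference of 0.96. Over the 4 pairings of a PMW123 with a PMW124 library it ranged from 0.92 to 0.99. With 2 libraries against 2, a two-sided exact permutation test cannot give a p below 0.333, which is the value it gave.

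The size of the arm to centre contrast varied by chromosome. The log2 difference between strains was 1.40 on V, 1.19 on III, 1.02 on II, 0.59 on I and 0.59 on IV, and on each autosome the PMW123 libraries lay above both PMW124 libraries. These values compare mean reads per bin, and all 10 bins of highest share lay in outer parts. Without the last bin of III, its right part alone went from 0.42 to 0.09. A bin outside those 10 lowered the value of IV: without bin 33 of IV, its left part rose from below 0 to 0.35. The order of the chromosomes may thus depend on such bins and was not tested. On chromosome V the outer parts held 3.41 and 2.91 times the reads per bin of the middle part in PMW123 and 1.22 and 1.17 times in PMW124. On chromosome I the control already stood at 2.86 and 2.79 times, and PMW123 at 4.38 and 4.15 times. Bin 6 of I alone held 4.78% and 4.78% of autosomal reads in PMW124, and 3.93% and 2.91% in PMW123. On X the groups overlapped: the outer to middle ratio was 1.86 and 2.18 in PMW123 and 2.15 and 1.72 in PMW124, a log2 difference of 0.07 with pairings from -0.21 to 0.34. The autosomes had pairings from 0.54 upwards, so the X range did not reach that of any autosome. The difference between X and the autosomes was not tested beyond these ranges.

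**Figure D2:**
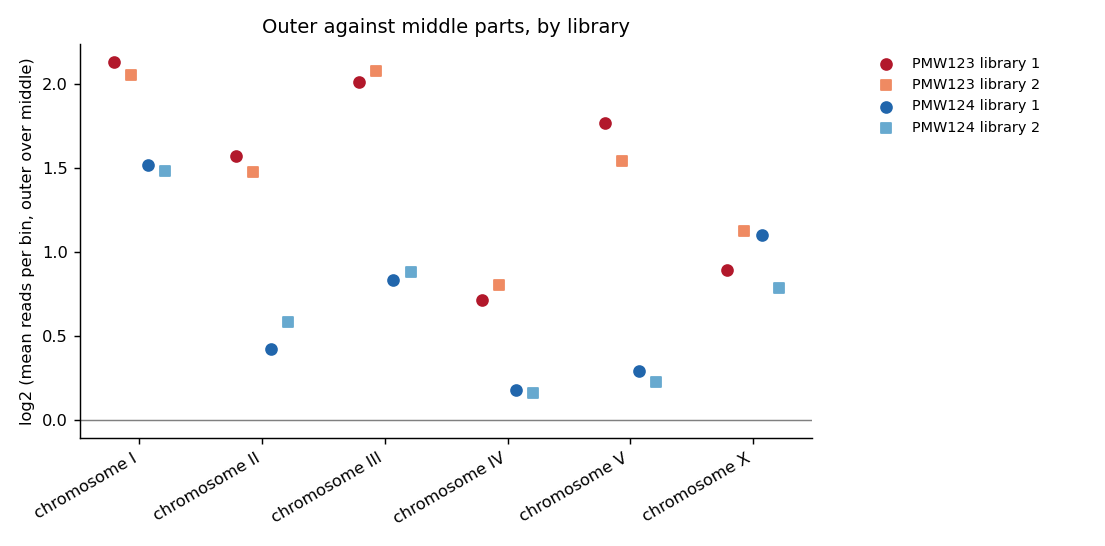
Log2 of the mean reads per bin in the outer parts over that in the middle part, for each chromosome and library. On the 5 autosomes the PMW123 libraries (red, orange) lie above both PMW124 libraries (blue, light blue), and on X the strains interleave.

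The middle of every autosome was lower in PMW123. In the fit over all 18 chromosome parts, 4 were higher (22.2% of those tested) and 8 were lower (44.4%), at an adjusted p under 0.05 in the quasi-likelihood test of edgeR. With TMM scaling, which centres the typical region rather than the autosomal total and raised every part by about 0.30, the split was 5 higher and 3 lower. In the main scaling the 8 lower parts were the 5 autosomal middles and all 3 parts of X. The middle of II held 2.26% and 2.25% of autosomal reads in PMW123 and 4.68% and 4.72% in PMW124. The strains did not overlap there and each strain's libraries nearly coincided. The log2 difference was -1.06, with pairings from -1.06 to -1.05 and an adjusted p of 1.4e-06. The middle of III stood at -0.94, from 2.39% and 2.18% against 4.37% and 4.38%, with an adjusted p of 1.2e-05. The middle of I stood at -0.82, from 2.27% and 2.21% against 4.00% and 3.89%, with an adjusted p of 1.8e-06. The middles of V and IV were less far down, at -0.59 and -0.48, with adjusted p of 0.0027 and 0.0014. The middle of V stood at -0.55 without PMW124 library 1 and at -0.63 without library 2, which leaves a single control library, and the adjusted p was then 0.12 and 0.11. TMM scaling ended the calls on the middles of V and IV (adjusted p 0.075 and 0.062). For the middles of I and II the fitted standard errors, 0.028 and 0.031, were smaller than the counting errors of 0.044 and 0.042, so their p-values are smaller than the read numbers alone support. A newer form of the same test gave the same 12 calls.

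The higher parts were the 2 arms of V and the right parts of III and IV. The left part of V held 13.6% and 14.9% of autosomal reads in PMW123 and 8.42% and 7.41% in PMW124, a log2 difference of 0.85 with an adjusted p of 0.00051. The right part of V held 7.82% and 7.67% against 4.996% and 4.73%, a difference of 0.67 with an adjusted p of 0.0014. The right part of IV stood at 0.43, from 5.43% and 5.64% against 4.00% and 4.22%, with an adjusted p of 0.0024. In these 3 parts both PMW123 libraries lay above both PMW124 libraries, which was also so in the left part of II without a call.

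The call on the right part of III rested on a single bin. The whole part held 14.7% and 13.8% of autosomal reads in PMW123 and 10.8% and 10.6% in PMW124, a log2 difference of 0.42 with an adjusted p of 0.0014. The last bin of the chromosome alone held 5.82% and 4.86% in PMW123 and 2.23% and 2.33% in PMW124, and it was the bin with the largest share in either PMW123 library. Without that bin the part held 8.90% and 8.97% against 8.54% and 8.22%, a log2 difference of 0.09. Without the 10 bins of highest share in the genome the difference was 0.07 and the adjusted p 0.41, and without PMW124 library 2, with a single control library left, the difference was 0.41 and the adjusted p 0.051.

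Other arms did not pass the test. The left part of II stood at 0.16, the left part of IV at -0.08, the left part of III at -0.18, the right part of II at -0.21, and the left and right parts of I at -0.22 and -0.24, with adjusted p from 0.077 to 0.48. Separation of the libraries was not confined to called parts. Among these arms only the left part of IV had pairings that spanned 0, from -0.23 to 0.04. The pairings of the left part of II ran from 0.01 to 0.32, and those of the left part of I from -0.35 to -0.08. Under TMM scaling the left part of II stood at 0.46 with an adjusted p of 0.019. Single bins set the sign of some of these arms. Without bin 33 of IV, the left part of IV held 6.79% and 8.14% of autosomal reads in PMW123. In PMW124 it then held 5.95% and 5.69%, a log2 ratio of 0.35. Without their strongest bin, the right part of II and the left part of III turned to 0.03 and 0.05.

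**Figure D3:**
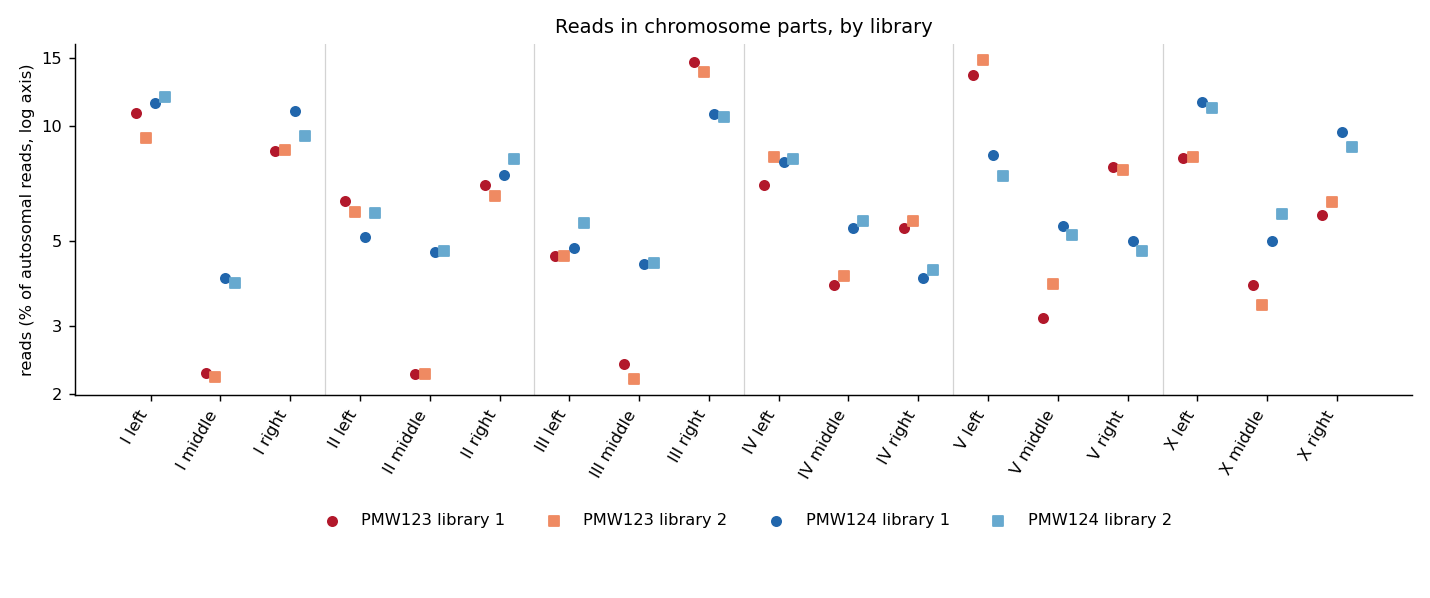
Reads in each of the 18 chromosome parts as a percentage of autosomal reads on a log axis, with 1 point per library. The PMW123 points lie below the PMW124 points in the middles of all autosomes and throughout X, and above them in the arms of V and the right parts of III and IV.

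X as a whole had a lower share in PMW123. It held 15.2% of nuclear reads in PMW123 library 1 (95% Wilson interval 14.9 to 15.6) and 15.3% in library 2 (15.1 to 15.5). In PMW124 it held 20.8% (20.3 to 21.3) and 20.6% (20.1 to 21.0). These intervals cover counting error only, because PCR copies of a fragment are not separate molecules. As a percentage of autosomal reads X stood at 17.95% and 18.03% in PMW123 and at 26.2% and 25.9% in PMW124, where its length is 21.5% of the autosomal length. PMW123 was thus below and PMW124 above the share that length alone would give. The ratio between strains was 0.69-fold, a log2 difference of -0.53 with pairings from -0.55 to -0.52, and the two-sided exact permutation p was 0.333, the smallest this design allows.

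The autosomes were not level with each other either. Chromosome V held 24.6% and 26.4% of autosomal reads in PMW123 and 18.9% and 17.3% in PMW124, a log2 difference of 0.49 (pairings 0.38 to 0.61). Chromosomes I and II were lower in PMW123, at -0.30 and -0.24, and III stood at 0.06. On IV the pairings spanned 0, from -0.15 to 0.04. Since V weighs on the autosomal total, X was also set against the other 4 autosomes, which gave -0.40. The median bin of X had a log2 fold change of -0.44 and the median autosomal bin one of -0.09.

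All parts of X moved the same way relative to the autosomal total. The left, middle and right parts stood at -0.46, -0.60 and -0.60, with adjusted p from 0.0022 to 0.0024. TMM scaling left the 3 X parts at -0.16, -0.30 and -0.30 with adjusted p from 0.062 to 0.10. The direction was kept and the calls ended. The middle of X also lost its call without PMW124 library 2, which leaves a single control library, at -0.47 with an adjusted p of 0.089, and the left part in the fit over all 12 libraries, with an adjusted p of 0.053.

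The profile along the chromosomes is best read at 1 Mb, where 16 of 103 windows were higher (15.5%) and 39 were lower (37.9%); with TMM scaling the split was 33 and 35. In all 55 called windows the libraries of the strains did not overlap. Windows without a call could be apart too, such as that at 0 to 1 Mb of X (pairings 0.13 to 0.43). The calls come from the same counts, so this separation adds no support to them. On II the lower windows formed an unbroken run of 7 from 5 to 12 Mb, and on III a run of 7 from 3 to 10 Mb. On I the run covered 6 to 10 Mb, on IV 8 to 12 Mb and on V 9 to 13 Mb. Of the 16 higher windows, chromosome V held 8. These lay at 0 to 1 Mb, at 2 to 4 Mb and in a run of 5 from 15 to 20 Mb. The right end of IV held 3, from 15 to 17.5 Mb. On II and V windows without a call lay between lower and higher ones, while on IV the higher window at 2 to 3 Mb (0.64) lay directly beside the lower one at 3 to 4 Mb (-1.22).

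The windows highest in PMW123 were all on chromosome V. The window at 3 to 4 Mb held 4.56% and 5.17% of autosomal reads in PMW123 and 2.38% and 1.45% in PMW124, a log2 fold change of 1.35 with an adjusted p of 0.00020. The PMW124 libraries themselves differed there, so the pairings ran from 0.94 to 1.83. The window at 0 to 1 Mb stood at 1.23, from 2.12% and 2.37% against 0.941% and 0.972%. The windows starting at 16, 2 and 18 Mb followed at 1.07, 1.02 and 0.96. Leaving out the strongest bin of each brought the 3 windows at 0, 2 and 3 Mb to 0.59, 0.39 and 0.83.

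The lowest windows were spread over 5 chromosomes. The window at 8 to 9 Mb of II held 0.456% and 0.392% in PMW123 and 1.12% and 1.02% in PMW124, a log2 fold change of -1.35 with an adjusted p of 7.9e-05. The window at 4 to 5 Mb of X held 1.12% and 1.07% against 2.79% and 2.62%, at -1.31. The windows at 5 to 6 Mb of III and at 9 to 10 Mb of I stood at -1.29 and -1.23. All 4 of these kept their sign when any of their 10 bins was left out.

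The window at 3 to 4 Mb of IV owed its direction to a single bin. It stood at -1.22, from 1.43% and 1.37% against 2.99% and 3.54%. Without bin 33 of the chromosome it held 1.20% and 1.21% in PMW123 and 0.861% and 1.01% in PMW124, a log2 ratio of 0.36 in the other direction. Of the 54 called windows with several bins, 4 changed sign in this way, the others being the windows at 3 to 4, 11 to 12 and 13 to 13.8 Mb of III. These went from -0.49 to 0.09, from 0.37 to -0.10 and from 0.68 to -0.01. In the last of them the libraries then overlapped, with 2.42% and 3.18% in PMW123 against 2.90% and 2.68% in PMW124. Without all 10 bins of highest share, which include its last bin and that bin's left neighbour, it stood at 0.82 in edgeR (adjusted p 4.8e-05). The short window at the right end of I, 1 bin long, stood at -1.14, but its PMW124 libraries held 2.62% and 0.927% of autosomal reads against 0.698% and 0.884% in PMW123, so that the size came from PMW124 library 1.

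**Figure D4:**
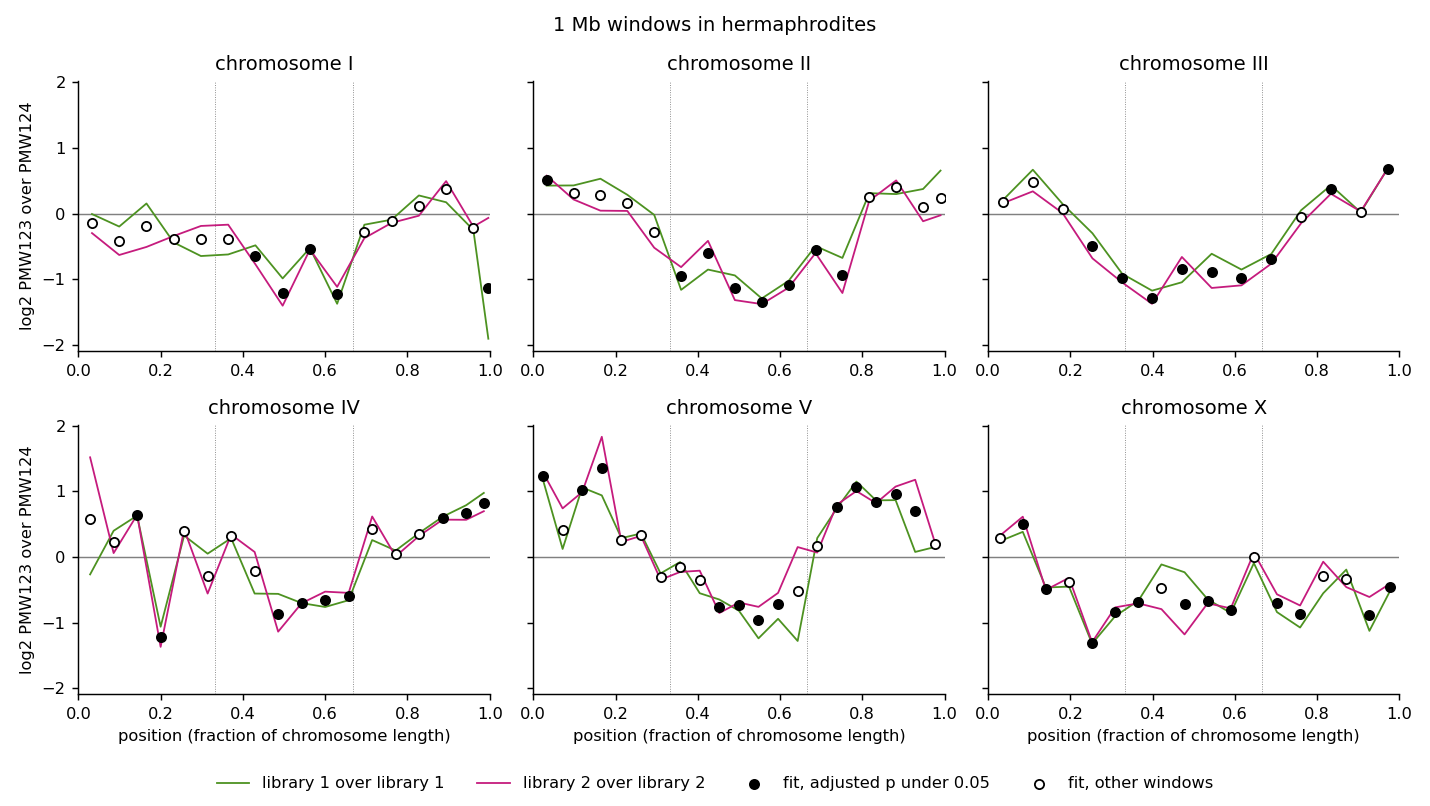
Log2 PMW123 over PMW124 in 1 Mb windows along each chromosome, with green and magenta lines for the 2 independent library pairs, points for the fit, filled where the adjusted p was under 0.05, and dotted lines between the 3 parts. The autosomes dip in their middles in both pairs, chromosome V rises above 1 in windows of both outer parts, and the fitted values of X are below 0 except at its left end.

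Of the 18 windows of X, 11 were lower and 1 was higher, in runs of 1 to 3 windows from 2 Mb to the right end with windows without a call between them. The higher one lay at 1 to 2 Mb, where X held 1.36% and 1.43% of autosomal reads in PMW123 and 1.04% and 0.931% in PMW124, a log2 fold change of 0.50 with an adjusted p of 0.024. Its left neighbour, at 0 to 1 Mb, stood at 0.29 with an adjusted p of 0.11. Without bin 18 the higher window stood at 0.29. In the main scaling the leftmost 2 Mb were thus the only windows of X above 0. The window at 11 to 12 Mb stood at -0.0047 there and at 0.08 without the 10 bins of highest share. The window at 2 to 3 Mb owed most of its -0.48 to bin 23, without which it stood at -0.07.

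The reach of the pattern was measured between neighbouring bins. The log2 fold change of library pair 1 in a bin was correlated with that of pair 2 in another bin, so that no reads were shared. On the autosomes the correlation was 0.43 for the same bin, 0.31 for adjacent bins, 0.23 at 1 Mb, 0.08 at 3 Mb and -0.14 at 5 Mb. On X it was 0.30 for the same bin, 0.10 for adjacent bins, 0.03 at 1 Mb, -0.16 at 3 Mb and -0.03 at 5 Mb. The autosomal values pool 5 chromosomes that differ in level, from -0.30 on I to 0.49 on V, so the series are not alike. These values describe 827 autosomal and 178 X bins and were not tested against each other.

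At 100 kb, 1001 bins had at least 10 reads over the 4 libraries and entered the fit. Of these 48 were higher in PMW123 (4.8%) and 97 were lower (9.69%), at an adjusted p under 0.05, and with TMM scaling the split was 75 and 64. The libraries of the strains did not overlap in 46 of the 48 and in 96 of the 97. The median size was 1.42 on the log2 scale for the higher and 1.60 for the lower bins, and no called bin was smaller than 0.77. The outer parts of the autosomes held 46 of the 48 higher bins and 21 of the 97 lower bins, among 548 bins tested. Their middles held 0 higher and 55 lower bins among 276, and X held 2 higher and 21 lower bins among 177. Both higher X bins lay in its left part. Called bins numbered 0 to 2 higher and 1 lower when either PMW124 library was left out. Those fits have a single PMW124 library, which is assumed to vary like the PMW123 libraries.

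The clearest higher bin was bin 37 of IV, positions 3600001 to 3700000 (ce10). It held 173 and 493 reads in PMW123 and 18 and 25 in PMW124, which is 512 and 512 against 96.3 and 103 per 100000 autosomal reads. Each strain's libraries agreed closely, and the log2 fold change was 2.35 (SE 0.37, adjusted p 3.1e-07). Bin 42 of IV, positions 4100001 to 4200000, had the largest fold change, 2.45 (SE 0.42, adjusted p 4.1e-06), from 107 and 360 against 42.8 and 45.5 per 100000. Its PMW123 libraries were over 3 times apart. The other 8 named higher bins lay on V (3 bins), I (3 bins), II and III, all in outer parts, with log2 fold changes from 1.85 to 2.40, and rested on 1 to 11 reads in each PMW124 library.

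The clearest lower bin lay close to these, at positions 3200001 to 3300000 of IV, which is bin 33. It held 79 and 158 reads in PMW123 and 397 and 611 in PMW124, or 234 and 164 against 2123 and 2527 per 100000 autosomal reads. Both PMW124 libraries were about an order of magnitude above both PMW123 libraries, and the log2 fold change was -3.56 (SE 0.28, adjusted p 4.4e-25). Bin 92 of II, positions 9100001 to 9200000, stood at -2.97 (SE 0.69, adjusted p 0.0010), from 4 and 7 reads against 14 and 16. Bin 46 of X, positions 4500001 to 4600000, stood at -2.60 (SE 0.56, adjusted p 0.00035), from 4 and 21 against 15 and 34. The other 7 lower bins, on I, II, III and X, ranged from -2.43 to -2.04. Which genes lie in these bins was not looked up, because the annotation at hand is of another genome build.

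**Figure D5:**
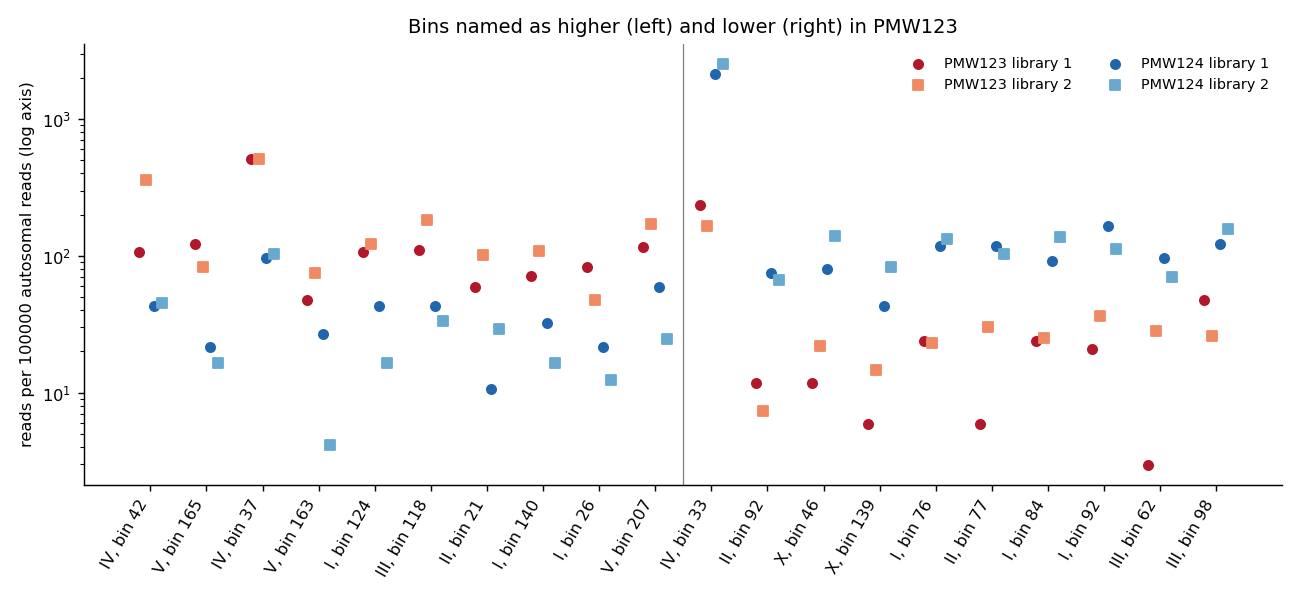
Reads per 100000 autosomal reads, on a log axis, in the 10 bins named as higher (left) and the 10 named as lower (right), with 1 point per library and bins numbered from the left end of their chromosome. The PMW123 and PMW124 points do not overlap in any of the 20 bins, because only such bins could be named. Bin 33 of IV has the widest gap, from 234 down to 164 against 2123 and 2527.

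The ratios in the authors' deposited table could be rebuilt from the counts, which shows what the counts add. For 993 of 993 bins with a finite ratio, the deposited value was within 1e-06 of the mean of the 2 same-numbered ratios of read shares. That mean gives a pair with few control reads the same weight as a pair with many. Of the 20 bins with the highest deposited ratios, 9 were called higher in the count fit, where 4.8% of all bins tested were, and of the 20 with the lowest, 19 were called lower, where 9.69% of all were. These bins were picked by a ratio of the same counts, so their calls are no independent support. The bin with the highest ratio in the authors' deposited table, 10.6, was bin 163 of V, positions 16200001 to 16300000, where the pairs gave 1.89 and 19.2 and the PMW124 libraries held 5 reads and 1 read. The next, 8.44 in the authors' deposited table, was bin 7 of IV, where the pairs gave 0.527 and 16.3 and the strains overlapped. The fifth, 6.21 in the authors' deposited table, was bin 15 of IV, where the pairs gave 11.8 and 0.604, and the count fit gave a log2 fold change of 0.07. A further 13 nuclear bins had no finite ratio; in 10 of them 1 PMW124 library had no read and in 3 neither had any.

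Males of the same strains were used only to ask whether the contrast differed by sex. The difference between sexes was tested for each window and part with an interaction term over 8 libraries, and 0 of 103 windows (0.0%) and 0 of 18 parts (0.0%) passed an adjusted p of 0.05 in edgeR. At an unadjusted p under 0.05 there were 3 windows and 0 parts. The median standard error of the difference was 0.38 for windows and 0.25 for parts, so differences of the size of most hermaphrodite fold changes could not have been seen in a window. Of the windows called in hermaphrodites, 11 of 16 higher and 32 of 39 lower ones were also called in males, where 13 of 103 windows (12.6%) were higher and 36 (35.0%) lower in all, and 0 were called in the opposite direction. The male calls came from the fit over all 8 libraries, and the hermaphrodite calls from the fit over 4. The male calls thus used a spread estimated partly from the hermaphrodite libraries, and the sets of calls are not independent. The widest gap between the sexes lay at 11 to 12 Mb of X, at -0.0047 in hermaphrodites and -1.11 in males, with an adjusted p of 0.999 for the difference.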

How the data were processed

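Whole-animal DamID libraries were compared between strains in hermaphrodites. The authors deposited whole-number GATC read counts per 100 kb bin and a linear ratio to PMW124 per bin. The tools named are SAMtools, Bowtie and cutadapt, and the genome build ce10, per the submitters' processing notes, without versions or settings. That PMW123 is lmn-1 was assumed, since no label or header states it. All 12 count columns were read; columns not used numbered 0.

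Counts were fitted with edgeR 4.0.16 in R 4.3.3 (default quasi-likelihood F test, Benjamini-Hochberg over all regions of a size), with the autosomal total as library size and no further scaling. Bins with under 10 reads summed over the 4 libraries were left out, which removed 4. Standard errors are the log2 fold change over the square root of F. Correlations of levels used a pseudocount of 0.5 reads. The test script was checked on simulated data. DESeq2 1.42.0 and other scalings, filters and sample sets were alternatives. Named were the 10 called bins per direction with the largest fold change and non-overlapping strains, 5 windows per direction, and every part and chromosome. Bins I 6, III 138, IV 7, IV 15, X 18 and X 23 were chosen after their values were seen. So were the windows named for resting on 1 bin or 1 library. The comparison and its tests were chosen with earlier results of these data known. The mitochondrial bin entered no test.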

Additional observations from a re-analysis of the deposited data

Results flagged for a closer look

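The mitochondrial bin, which entered none of the comparisons, held more reads in PMW123 than in the control. It held 0.426% and 0.546% as a percentage of autosomal reads in PMW123, a mean of 0.486%, and 0.267% and 0.294% in PMW124, a mean of 0.281%. The ratio of the means was 1.73, both PMW123 libraries lay above both PMW124 libraries, and the two-sided exact permutation p was 0.333, the smallest that 2 libraries against 2 allow. What the reads of this bin came from was not tested.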

How the results depend on the processing

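Counts of higher and lower bins (48 and 97) depended on the processing. They were 75 and 64 with TMM, 12 and 7 with DESeq2, 0 and 0 with the replicate block, which leaves 1 residual degree of freedom (211 bins at an unadjusted p under 0.05, against 275 without it), and 0 to 27 and 1 to 41 over the 4 fits that each left out a library; the fit over all 12 libraries gave 23 higher bins. Higher windows (16) numbered 33 with TMM, 28 with DESeq2, 25 with all nuclear reads as library size and 27 without the 10 bins of highest share, and lower windows (39) numbered 21 with DESeq2. Lower parts (8) numbered 3 with TMM. TMM raised the median log2 fold change of bins from -0.19 to 0.01. With the block, windows numbered 16 and 35 and parts 4 and 8. The libraries' deviations from their strain means correlated at -0.03 between same numbers across bins and -0.26 across windows, so numbers were not taken to pair libraries; a crossed block, chosen after seeing the data, gave 38 and 79 bins, 23 and 46 windows and 4 and 10 parts. All 20 named bins lost their call with the block, while the fold change of bin 33 of IV was -3.57 with it and -3.56 without it. All 10 windows named by size kept their call in every alternative fit. None of these fits left out bin 33 of IV, without which the window at 3 to 4 Mb of IV turned to 0.36.

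Among all called regions, the window at 11 to 12 Mb of III went from 0.37 to -0.02 without the 10 bins of highest share, and 2 called bins changed sign without PMW123 library 2. The parts that changed sign had no call: I left to 0.080 and I right to 0.063 with TMM (0.088 and 0.068 with DESeq2); II right to 0.091 with TMM, 0.099 with DESeq2 and 0.11 without the 10 bins; III left to 0.12 with TMM and 0.13 with DESeq2; IV left to 0.21 with TMM, 0.22 with DESeq2, 0.010 with all nuclear reads and, over the 4 fits that each left out a library, from -0.21 to 0.027, the latter without PMW123 library 1. Leaving out the strongest bin also changed the sign of II right, III left and IV left, to 0.03, 0.05 and 0.35. The X share set against autosomes stayed between -0.54 and -0.40 over the alternatives run for it. The autosomal arm contrast stayed between 0.77 and 0.98 over its own. Neither set of alternatives included TMM scaling. The causes were not tested. The median PMW124 bin held 13 to 17 reads, and spread beyond counting (chi-square per degree of freedom 3.88 and 2.78) was also present.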
